A study of Gallus gallus with 6 samples.

Results

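The distal piece of the chicken cochlear duct was compared with the middle piece at embryonic day 6.5. The duct was divided into 3 pieces of about equal size, and both came from dissected ducts of Gallus gallus embryos with no genetic change or treatment named in the labels. Each held part of the future basilar papilla, the bird hearing epithelium, together with part of the future tegmentum vasculosum, a secretory epithelium that faces it. The distal piece also took in the future lagena, which is a macula, so lagena and papilla cannot be told apart in it. The comparison uses 4 of the 6 libraries of the series, 2 distal and 2 middle, chosen by the region in their names. The other 2 libraries are from the proximal piece and serve to estimate the spread and to show levels along the duct. Pieces of each region were pooled across ducts before RNA extraction, and the number of embryos per pool is not stated. The table of values places 1 library of every region in a first set and 1 in a second set. The labels' protocols speak of separate biological replicates, but no label ties a library to a culture or animal, so the p-values measure the spread between these libraries. In models that fit the set as a block, this is the spread of the region differences between the sets.

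The basilar papilla is patterned along its length before its hair cells mature, and position along the duct later decides which sound frequency a hair cell answers best. Secreted signals of the Wnt, FGF and BMP families and retinoic acid pattern the early ear. Transcription factors such as the MSX, HMX and PAX proteins, and coactivators such as the EYA proteins, mark its territories. A macula differs from the papilla in that otoconia, small calcium carbonate crystals, lie on its hair cells. The auditory ganglion, whose neurons derive from the otic vesicle and whose glia derive from neural crest, runs beside the duct, so pieces of the duct can carry its cells. In bulk tissue, fewer cells of a type and less RNA per cell cannot be told apart.

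Expression was measured as RPKM, read numbers scaled to gene length and to the alignments of the library, as deposited by the authors. The distal libraries held 9262860 alignments in the first set and 56103107 in the second, and the middle libraries 23537713 and 66072315. In these units, 1 read on a gene of 1 kilobase equals 0.108 and 0.0178 RPKM in the distal and 0.0425 and 0.0151 RPKM in the middle libraries, and values near these rest on few reads. Libraries of 1 set resembled each other more than libraries of 1 region. Across the 12559 genes tested, log2 values of distal and middle libraries correlated at 0.976 in the first set and 0.973 in the second, against 0.924 between the sets for distal and 0.928 for middle. These values are across genes, which are not replicates. The share of summed RPKM in ribosomal protein genes ranged over 23.3% to 25.3% in these first-set libraries and over 13.4% to 15.4% in their second-set partners. Markers of the labelled tissue were present. OC90, which encodes a major otoconial protein that the duct epithelium makes, measured 723 to 1153 RPKM in the 4 libraries, TECTA, which encodes alpha-tectorin of the tectorial membrane, 121 to 232, and the otic transcription factor genes SOX2 and GATA3 64.8 to 88.1 and 128 to 240.

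Differences between the distal and middle pieces were found within each set on the log2(RPKM + 1) scale, on which a change of 1 is a 2-fold change of RPKM + 1. On this scale the change of low genes comes out too small. At least 2-fold in both sets, 53 genes were higher (0.422% of genes tested) and 155 were lower (1.23%) in the distal piece. Of these, 47 and 123 carry a gene symbol. The first set alone placed 200 genes higher and 333 lower at this size, the second 97 and 325, and 5 genes went opposite ways by this much. Over all genes tested 70.6% had the same sign in both sets, 39.9% higher and 30.6% lower in the distal piece, and the within-set changes correlated across genes with a Pearson r of 0.614. The median change was 0.03 in each set. Both distal libraries lay above both middle ones for 1517 genes (12.1%) and below them for 1120 (8.92%).

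No gene passed the test across all genes. The model was limma with the library set as a replicate block over all 6 libraries, and 0 of 12559 genes (0%) reached an adjusted p below 0.05. The smallest adjusted p was 0.156, and 960 genes (7.64%) had an unadjusted p under 0.05, 328 of them higher in the distal piece (2.61%) and 632 lower (5.03%). Fitted to the 4 distal and middle libraries alone, with the block and 1 residual degree of freedom, limma called 1217 genes (9.69%), 485 higher (3.86%) and 732 lower (5.83%). The proximal libraries share the estimate of the spread in the 6-library model. Leaving out either proximal library did not change the distal minus middle estimates, and the other proximal library then added nothing to the estimate of the spread. With no replicate block limma called 0 genes, with 210 (1.67%) at an unadjusted p under 0.05. Changes below are log2 changes ± SE from the 6-library blocked model, n = 2 libraries per region, and adjusted p from the 4-library fit is named as such. No change described below passed the 6-library test.

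**Figure D1:**
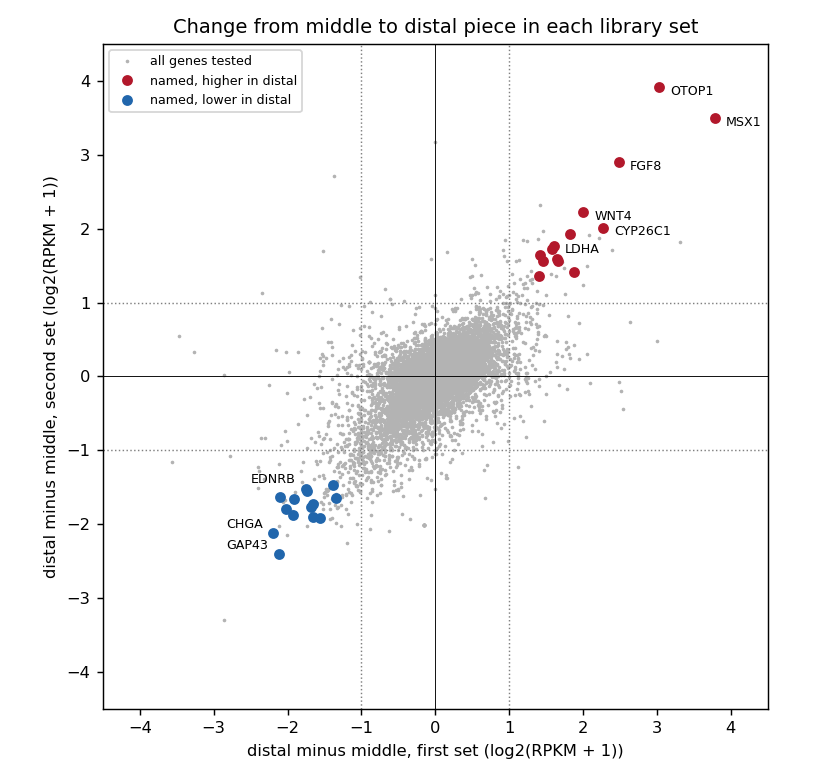
Each point is a gene, placed by its distal minus middle difference in log2(RPKM + 1) in the first set (x axis) and in the second set (y axis). Grey points are all 12559 genes tested, coloured points the 14 genes named per direction, and dotted lines mark a log2 change of 1 in size. Of the genes named, OTOP1, MSX1 and FGF8 lie farthest toward the upper right and GAP43 and CHGA farthest toward the lower left.

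Genes higher on the distal side included OTOP1, MSX1, FGF8, WNT4 and CYP26C1, which encode an otoconia-forming proton channel, a homeobox factor, 2 secreted ligands and an enzyme that breaks down retinoic acid. Values are given as first set, then second set. OTOP1 measured 40.9 and 70.9 RPKM in the distal libraries against 4.14 and 3.77 in the middle ones, a log2 change of 3.47 ± 0.27. MSX1, a gene regulated by BMP signalling, measured 99.8 and 90.8 RPKM against 6.30 and 7.15, a change of 3.64 ± 0.38. For FGF8 the distal values were 12.3 and 12.4 RPKM and the middle values 1.38 and 0.801 (2.69 ± 0.24). In all 3 genes each distal library lay above both middle libraries, as in 49 of the 53 genes at least 2-fold higher in both sets. Genes were named by that change, so the lack of overlap adds no support. WNT4, a Wnt ligand gene, measured 56.8 and 54.1 RPKM against 13.4 and 10.8 (2.11 ± 0.20). CYP26C1 measured 41.5 and 43.2 RPKM against 7.81 and 9.96 (2.14 ± 0.22). The sets gave nearly the same distal level for WNT4 and CYP26C1.

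Also named as higher were LDHA, ADAMTSL3, ADAMTS1, WNT5A, GBE, RGR, PKP2, STC2 and OLFM4. LDHA encodes lactate dehydrogenase A, which turns pyruvate into lactate, and it was the most abundant of them, with 227 and 154 RPKM in the distal and 74.1 and 44.4 in the middle libraries (1.69 ± 0.19). ADAMTS1, the gene of a secreted protease that cleaves proteoglycans, measured 81.9 and 150.3 RPKM against 30.5 and 57.9 (1.38 ± 0.19), and its relative ADAMTSL3, which lacks the protease domain, measured 4.94 and 10.7 against 0.671 and 2.10 (1.88 ± 0.22). WNT5A, a ligand of noncanonical Wnt signalling, measured 55.5 and 69.7 RPKM against 19.6 and 23.0 (1.51 ± 0.21). The libraries of the pieces did not overlap for any of these 4 genes, as for 49 of the 53 genes at least 2-fold higher in both sets and 12.1% of all genes. PKP2 encodes the desmosome protein plakophilin 2 and measured 19.0 and 21.8 RPKM against 5.36 and 6.72 (1.61 ± 0.23). STC2, the gene of the secreted glycoprotein stanniocalcin 2, measured 24.8 and 28.1 against 6.02 and 9.93 (1.65 ± 0.24). The secreted glycoprotein gene OLFM4 measured 5.199 and 4.65 RPKM against 1.33 and 0.807 (1.53 ± 0.23). Outside the distal piece OLFM4 reached 1 RPKM only in the first-set middle library, so it entered the test through its high group. RGR, which encodes a retinal-binding opsin, showed a large gap between the sets within each piece, with 36.7 and 14.03 RPKM distally and 11.01 and 3.97 in the middle (1.62 ± 0.23). GBE, an entry whose product the table does not name, showed a like gap, with 55.5 and 20.8 against 17.9 and 5.62 RPKM (1.65 ± 0.23). Over the 14 genes the 6-library limma adjusted p lay between 0.156 and 0.165 and the 4-library one between 0.0007 and 0.0066. The genes were chosen for a 2-fold change in both sets of the same 4 libraries, so the 4-library p adds no support for them.

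**Figure D2:**
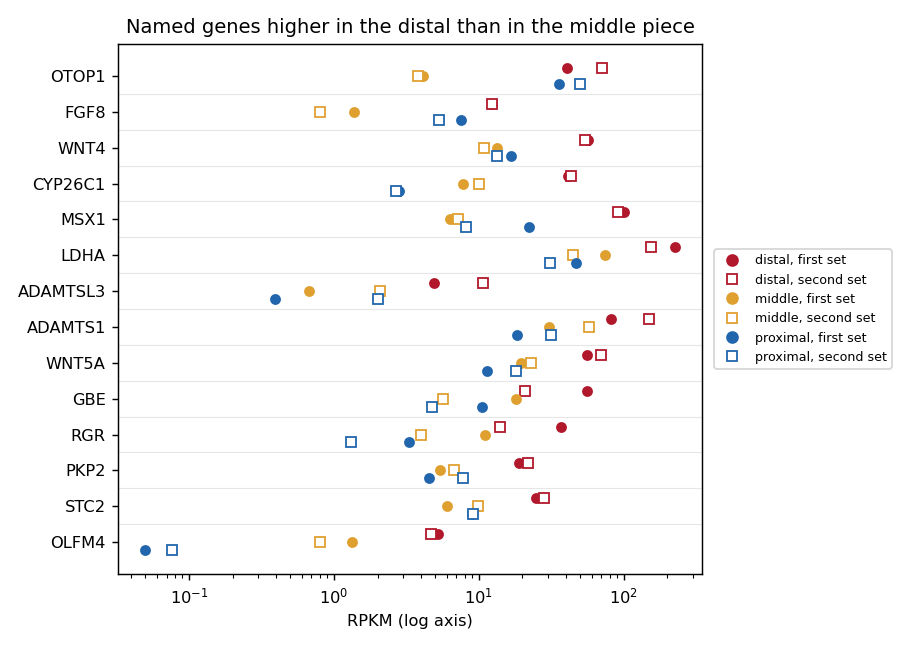
RPKM (log axis) of the 14 genes named as higher distally, 1 point per library, with colour for the region and filled circles for the first set, open squares for the second. Distal points lie to the right of the middle points in each set, while the proximal points lie on either side of the middle ones, high for OTOP1 and FGF8 and low for OLFM4 and RGR.

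Transcription factors and coactivators of the early ear went both ways. Of 45 listed genes 32 are in the table and 31 were tested. Among these 14 lay higher in both sets and 11 lower (median 0.01, against 0.03 over all genes), 3 had a 2-fold excess and 2 a 2-fold deficit in both. The 4-library fit called 9 higher and 7 lower. Over all genes 39.9% lay higher and 30.6% lower in both sets, and the 4-library fit called 3.86% and 5.83%, against which each list count is to be read. Besides MSX1, the otic homeobox gene HMX3 measured 15.1 and 18.8 RPKM in the distal and 5.81 and 4.57 in the middle libraries (1.53 ± 0.24), and the T-box gene TBX3 27.0 and 44.5 against 11.1 and 17.9 (1.24 ± 0.20). Smaller distal excesses were measured for DLX5 (0.96 ± 0.21), a homeobox gene of the dorsal otocyst, LMX1B (0.77 ± 0.25), PAX2 (0.61 ± 0.21), OTX2 (0.59 ± 0.25) and EMX2 (0.43 ± 0.18), a homeobox gene that sets hair cell orientation in maculae. In the other direction EYA2, which encodes a transcriptional coactivator, measured 7.90 and 10.7 RPKM in the distal and 32.4 and 35.9 in the middle libraries (-1.78 ± 0.21). ZIC1 measured 1.58 and 2.67 against 5.35 and 7.98 (-1.30 ± 0.25), and the Iroquois genes IRX1 and IRX2 had changes of -0.71 ± 0.19 and -0.98 ± 0.42. Of the genes named in this paragraph only PAX2 and IRX2 overlapped between distal and middle libraries. Over all genes 12.1% lay higher and 8.92% lower without overlap, and these genes were picked for their changes.

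In the Wnt list 28 of 43 tested genes lay higher in both sets and 7 lower, beside 39.9% and 30.6% of all genes. Its median was 0.27 against 0.03 over all genes. The 4-library fit called 9 of the 43 higher and 2 lower, beside 3.86% and 5.83% of all genes. After WNT4 and WNT5A the clearest were RSPO3, which encodes an R-spondin that amplifies Wnt signals, and NOTUM, which encodes a secreted enzyme that inactivates Wnt ligands. RSPO3 measured 18.3 and 16.0 RPKM against 7.71 and 5.79 (1.24 ± 0.21), and NOTUM 15.8 and 29.2 against 7.54 and 9.18 (1.27 ± 0.28). The secreted modulator gene SFRP1 had a change of 0.64 ± 0.19, the ligand gene WNT6 0.70 ± 0.30, and the receptor genes FZD10 and LGR5 0.77 ± 0.28 and 0.56 ± 0.25. The antagonist gene DKK1 lay the other way, with 7.47 and 8.17 RPKM in the distal and 17.4 and 19.8 in the middle libraries (-1.15 ± 0.45), as did the antagonist gene FRZB (-0.47 ± 0.23). The other 5 genes lower in both sets were the ligand genes WNT2B (-0.48 ± 0.38) and WNT16, the transcription factor genes LEF1 and TCF7, and the receptor gene FZD1. WNT2B measured 0.137 and 0.368 RPKM in the distal and 0.918 and 0.572 in the middle libraries. For WNT16 the values were 0.210 and 0.388 against 0.348 and 0.458. Antagonist genes thus lay on both sides, while the ligand genes on the lower side measured below 1 RPKM in all 4 libraries.

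In the FGF list the 4 genes with the smallest p encode FGF family proteins. In both sets 17 of 29 tested pathway genes lay higher and 5 lower (median 0.18), with 5 higher and 2 lower in the 4-library fit. The shares of all genes were 39.9% and 30.6% in both sets and 3.86% and 5.83% in the fit. FGF16 measured 8.69 and 7.95 RPKM in the distal against 2.54 and 1.29 in the middle libraries (1.71 ± 0.27), beside FGF8 above. FGF20, whose mouse counterpart is needed for the lateral part of the organ of Corti, measured 13.7 and 10.1 against 6.55 and 4.56 (0.98 ± 0.21). FGFR3, which marks supporting cells, measured 35.1 and 86.5 against 25.0 and 60.3 (0.49 ± 0.20), and here the libraries of the pieces overlapped because the sets lay farther apart than the pieces. FGF13 was lower in the distal piece, with 3.03 and 5.55 RPKM against 12.5 and 18.2 (-1.65 ± 0.22). It encodes an intracellular FGF-like protein of neurons that binds sodium channels, and its relative FGF12 had -0.85 ± 0.24.

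BMP pathway genes had their largest distal excess in an antagonist. In both sets 15 of 29 tested genes lay higher and 10 lower (median 0.09), beside 39.9% and 30.6% of all genes. The 4-library fit called 6 higher and 2 lower, beside 3.86% and 5.83%. NOG, which encodes the BMP-binding protein noggin, measured 16.2 and 12.0 RPKM in the distal and 4.56 and 4.05 in the middle libraries (1.50 ± 0.29). Among ligands BMP4 measured 40.3 and 43.0 against 23.6 and 22.9 (0.81 ± 0.20) and BMP2 2.13 and 3.61 against 0.750 and 1.77 (0.79 ± 0.24). BMP4 lay higher in each distal library than in either middle one, as did 12.1% of all genes. It was named for its small p, so this adds no support. BAMBI, the gene of a pseudoreceptor that BMP signalling induces, measured 151 and 99.6 against 79.5 and 55.1 (0.88 ± 0.19). The ID, SMAD6 and SMAD7 genes of the list changed less. ID1 (-0.01 ± 0.21) and ID4 (-0.14 ± 0.37) had opposite signs in the sets. ID2 had 0.16 ± 0.34, SMAD6 0.25 ± 0.25 and SMAD7 0.22 ± 0.22. BMP7 had 0.48 ± 0.20 and the signal transducer gene SMAD9 -0.68 ± 0.23. Other listed genes of secreted modulators lay on both sides. NBL1 (0.70 ± 0.26) and TWSG1 (0.51 ± 0.20) were higher in both sets, and FSTL3 (-0.80 ± 0.36), BMPER (-0.35 ± 0.21) and CHRDL1 (-0.18 ± 0.23) were lower.

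Retinoic acid genes went both ways. Higher in both sets were 7 of 14 tested genes, and 6 were lower (median -0.02), beside 39.9% and 30.6% of all genes. The 4-library fit called 3 and 3, beside 3.86% and 5.83%. CYP26B1, which like CYP26C1 encodes a retinoic acid hydroxylase, went opposite to it, with 3.15 and 9.10 RPKM in the distal and 11.9 and 25.5 in the middle libraries (-1.52 ± 0.27). The other family member, CYP26A1, measured 1.04 and 1.06 against 0.234 and 0.427 (0.62 ± 0.21). The binding protein gene CRABP1 also lay lower, with 18.7 and 9.24 against 51.8 and 20.9 (-1.26 ± 0.23). RDH10, the gene of an enzyme that makes retinaldehyde from retinol, measured 33.8 and 31.4 against 15.1 and 18.6 (0.92 ± 0.22), and the retinol transporter gene STRA6 had 0.59 ± 0.22. For ALDH1A3, which encodes an enzyme for the last step of synthesis, the sets disagreed in sign (-1.42 in the first and 0.78 in the second).

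Smaller pathway lists held few genes of note. In the Notch list 8 of 18 tested genes lay higher in both sets and 8 lower, beside 39.9% and 30.6% of all genes. The noncanonical ligand genes DLK1 and DNER had 1.31 ± 0.22 and 0.84 ± 0.21, while the ligand gene DLL1, which neural precursors use, measured 7.21 and 17.9 RPKM in the distal and 16.3 and 51.4 in the middle libraries (-1.27 ± 0.32), with overlap between the pieces. HEY2, a Notch target gene, had -0.66 ± 0.23. Hedgehog genes had a median of 0.22, with 8 of 12 higher and 1 lower in both sets. HHIP, a target and inhibitor of the pathway, measured 1.13 and 2.20 RPKM distally and 0.191 and 0.386 in the middle (1.02 ± 0.23), and the receptor gene PTCH1 had 0.61 ± 0.22. HHIP reached 1 RPKM in the distal libraries alone and so entered the test through its high group. INHBA, which encodes the activin A subunit, measured 1.98 and 2.14 RPKM against 0.261 and 0.537 (1.14 ± 0.24). Outside the distal piece INHBA reached 1 RPKM only in the second-set proximal library (1.10), so it also entered the test through its high group. Of the 11 tested TGF-beta and activin genes 6 lay higher in both sets and 2 lower. In the IGF list 7 of 11 were higher and 2 lower in both, with IGFBP5 at 0.69 ± 0.19 and the protease gene PAPPA at -0.97 ± 0.25.

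Hair cell genes went both ways, with a median of -0.07. Both sets placed 10 of 23 tested genes higher and 10 lower, beside 39.9% and 30.6% of all genes. The 4-library fit called 2 and 2, beside 3.86% and 5.83%. ATOH1, which is required to make hair cells, measured 40.7 and 31.1 RPKM in the distal and 7.95 and 7.77 in the middle libraries (2.05 ± 0.32). GFI1, a zinc finger factor gene that acts after it, measured 0.949 and 2.03 against 0.102 and 0.461 (0.94 ± 0.23), and LHX3 1.98 and 1.04 against 0.593 and 0.532 (0.66 ± 0.24). These 3 genes lay higher in each distal library than in either middle one, as did 12.1% of all genes. The naming rule took them from the list for a small p and the same sign in both sets, so this adds no support. POU4F3, another hair cell factor gene, measured 9.55 and 11.8 RPKM against 12.0 and 12.0 (-0.16 ± 0.24), and CALB2, which encodes calretinin, had -0.06 ± 0.31. FAM65B, which hair cells use in the bundle and which many other cells express, was lower, with 3.17 and 8.51 against 10.8 and 27.2 (-1.53 ± 0.21). The transduction channel gene TMC1 measured 0.308 to 0.706 RPKM in the 4 libraries and was not tested.

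Genes of the matrices that overlie sensory epithelia were not alike. TECTA measured 121 and 232 RPKM in the distal and 136 and 216 in the middle libraries (-0.03 ± 0.20), with opposite signs in the sets. OTOGL, the otogelin-like gene, measured 77.9 and 209 RPKM against 37.5 and 79.7 (1.21 ± 0.23), OTOA, which encodes otoancorin, 10.1 and 41.7 against 4.29 and 16.8 (1.16 ± 0.23), and TECTB, which encodes beta-tectorin, 37.2 and 22.2 against 13.4 and 10.8 (1.19 ± 0.33). In OTOGL and OTOA the sets lay so far apart that the first-set distal library fell below the second-set middle one. TECTB did not overlap between the pieces, where 12.1% of all genes lay higher without overlap. Over all genes 39.9% lay higher and 30.6% lower in both sets, and the 4-library fit called 3.86% and 5.83%. The prosensory and supporting cell list held 24 tested genes, 14 higher in both sets and 6 lower (median 0.13). The 4-library fit called 7 and 2 of them. GATA3, with -0.46 ± 0.22, and HEY2 were among those lower.

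Otoconia and macula genes went both ways. Of the 15 tested, 7 lay higher in both sets and 6 lower (median -0.03), beside 39.9% and 30.6% of all genes, and the 4-library fit called 3 and 3, beside 3.86% and 5.83%. OTOP1 was the 1 member at least 2-fold higher in both sets, and OTOL1 the 1 member at least 2-fold lower. OTOL1, the gene of the otoconial collagen otolin, measured 0.759 and 0.377 RPKM in the distal and 4.05 and 1.83 in the middle libraries (-1.28 ± 0.25). NOXO1, which encodes an organizer of the oxidase needed for otoconia, measured 2.56 and 1.34 against 5.45 and 3.39 (-0.88 ± 0.24), and the carbonic anhydrase gene CA2 7.73 and 6.63 against 12.2 and 11.5 (-0.66 ± 0.24). OC90 itself had 0.45 ± 0.28, with 1153 and 967 RPKM against 821 and 723. In the tegmentum and non-sensory list 4 of 13 tested genes lay higher in both sets and 4 lower (median 0.02), and ATP1B1, which encodes a sodium pump subunit, measured 61.5 and 55.2 RPKM against 99.7 and 99.9 (-0.77 ± 0.19).

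Neuronal genes were lower on the distal side, and among the 27 lists this one had the median farthest from 0. Of 38 listed genes 26 are in the table and 23 were tested. Among these 21 lay lower in both sets and 1 higher, and 13 were at least 2-fold lower in both, against 1.23% of all genes. The median was -1.26, with -1.24 in the first set and -1.43 in the second. In the 4-library fit 19 were called lower and 0 higher, where 5.83% of all genes were called lower. Lower in both sets were 30.6% of all genes. The lists were chosen with earlier results of these data known, and the fit rests on the same libraries as these counts. The summed level of the listed genes was 668 and 757 RPKM in the distal libraries, 1805 and 2308 in the middle ones and 2223 and 2028 in the proximal ones. The exceptions were CHGB (0.09 ± 0.22), which encodes a granin of secretory vesicles, and the receptor gene RET (0.02 ± 0.27), whose sets disagreed in sign.

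Growth cone, identity and secretory genes were all among them. GAP43, which encodes a growth cone protein, measured 44.0 and 51.6 RPKM in the distal and 195 and 279 in the middle libraries (-2.27 ± 0.23). CHGA, the gene of the vesicle protein chromogranin A, measured 74.2 and 78.4 against 343 and 346 (-2.16 ± 0.26), and CNTN2, a gene for an axonal adhesion protein, 21.5 and 80.7 against 89.1 and 361 (-2.08 ± 0.29). Each of these genes had about the same log2 change in both sets, including CNTN2, whose level differed widely between the sets. NEUROD1, a factor of newly formed otic neurons, measured 6.23 and 5.34 RPKM against 30.5 and 24.9 (-2.08 ± 0.30). NEUROD4 and NHLH1, factors of the same early stage, had -1.57 ± 0.22 and -1.58 ± 0.30. The stathmin genes STMN2 and STMN3, which act on microtubules, had -1.66 ± 0.27 and -1.78 ± 0.19, and the neuronal RNA-binding protein gene ELAVL4 -1.42 ± 0.19. Genes of transmitter release had smaller values, with SNAP25 at -1.27 ± 0.20 and STX1A at -1.13 ± 0.31. NEFL, a neurofilament gene, measured 141 and 117 RPKM against 178 and 188 (-0.50 ± 0.25).

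The remaining genes named as lower were SYBU, TMPRSS7, VSTM2A, TAGLN3, KCNS2, EDNRB, STMN4 and SNAP91, with EYA2 and FGF13 described above. TAGLN3, a neuronal transgelin gene, measured 63.2 and 34.5 RPKM against 276 and 109 (-1.87 ± 0.23). SYBU, which encodes syntabulin, a linker of axonal cargo to kinesin, measured 1.33 and 2.47 against 7.84 and 11.8 (-1.90 ± 0.22). SNAP91, a clathrin assembly gene of synapses, measured 10.8 and 19.7 against 28.9 and 64.0 (-1.50 ± 0.20). For each of them both distal libraries lay below both middle ones, as for 134 of the 155 genes at least 2-fold lower in both sets. Over all genes the share was 8.92%. KCNS2, the gene of a modifying potassium channel subunit, measured 0.177 and 2.10 RPKM against 3.78 and 9.72 (-1.91 ± 0.24), and its first-set distal value is near 1 read per kilobase in that library. STMN4 had -1.74 ± 0.22, VSTM2A -1.73 ± 0.21 and the serine protease gene TMPRSS7 -1.69 ± 0.20. EDNRB, which encodes an endothelin receptor of neural crest cells, measured 8.80 and 17.2 RPKM against 31.9 and 51.1 (-1.63 ± 0.21). Over the 14 genes the 6-library limma adjusted p was 0.156 to 0.158, and in the 4-library fit it lay between 0.000729 and 0.00365. As for the higher genes, the choice by 2-fold change in both sets means that the 4-library p adds no support.

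**Figure D3:**
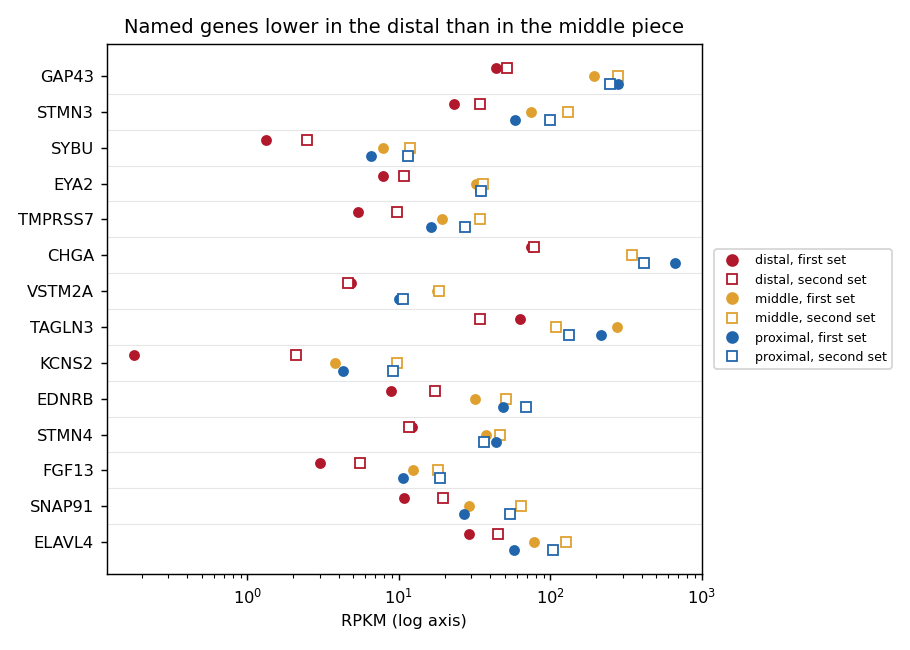
RPKM (log axis) of the 14 genes named as lower distally, 1 point per library, with colour for the region and filled circles for the first set, open squares for the second. Distal points lie left of the middle points in each set, and the proximal points of EYA2, STMN4 and FGF13 lie close to the middle ones, while those of VSTM2A lie between.

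Glia and neural crest genes were partly lower with the neurons. Of 8 tested glial genes 4 lay lower in both sets and 3 higher (median -0.42), beside 30.6% and 39.9% of all genes. The 4-library fit called 3 lower and 0 higher, beside 5.83% and 3.86%. FABP7, which encodes a fatty acid binding protein of glial precursors, measured 78.4 and 37.2 RPKM in the distal and 274 and 84.4 in the middle libraries (-1.48 ± 0.26), and FOXD3, a neural crest factor gene, 17.7 and 24.4 against 56.1 and 55.0 (-1.38 ± 0.31). NGFR had -1.16 ± 0.48. SOX10, which otic epithelium also expresses, measured 146 and 227 RPKM against 142 and 192 (0.13 ± 0.20). Of the 5 tested melanocyte genes, EDNRB2 (-1.09 ± 0.22) and EDNRB were lower, but the pigment genes TYR and MLANA measured 0 to 0.0478 and 0 to 0.0855 RPKM in the 4 libraries, and MLANA was listed at 0 in both distal ones.

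Glycolysis and hypoxia genes had a median of 0.24. Of 29 tested genes 17 lay higher in both sets and 7 lower, beside 39.9% and 30.6% of all genes. The 4-library fit called 10 higher and 1 lower, beside 3.86% and 5.83%. CA9, a carbonic anhydrase gene induced by low oxygen, measured 130.4 and 90.0 RPKM in the distal against 56.4 and 38.7 in the middle libraries (1.20 ± 0.23), and the glucose transporter gene SLC2A1 46.0 and 53.3 against 25.7 and 31.9 (0.77 ± 0.19). EGLN3, which encodes an oxygen sensor, measured 2.22 and 3.63 against 0.701 and 1.13 (1.02 ± 0.26). None of these genes, nor LDHA, overlapped between the pieces, where 12.1% of all genes lay higher without overlap. PGK1 and ENO1, abundant enzymes of the pathway, had 0.48 ± 0.20 and 0.37 ± 0.23. LDHB, the other main lactate dehydrogenase gene, had -0.28 ± 0.21, opposite to LDHA.

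Matrix and adhesion genes went both ways. Both lists are to be read against all genes, of which 39.9% lay higher and 30.6% lower in both sets. The 4-library fit called 3.86% and 5.83% of all genes. Among 27 tested matrix genes 14 lay higher in both sets and 9 lower (median 0.21), with 7 and 4 in the 4-library fit. MATN4, which encodes matrilin 4, measured 153 and 202 RPKM in the distal and 58.2 and 90.1 in the middle libraries (1.27 ± 0.27), ABI3BP 5.50 and 5.88 against 1.74 and 1.99 (1.22 ± 0.22), and the fibronectin gene FN1 91.6 and 303 against 54.5 and 197 (0.68 ± 0.22). MATN4 and ABI3BP did not overlap between the pieces, and FN1 did. Without overlap, 12.1% of all genes lay higher. The members were picked by their p or after their values were seen, so the lack of overlap adds no support. The basement membrane genes NID2 and COL4A1 lay lower (-1.04 ± 0.36 and -0.56 ± 0.27). Among 42 adhesion and guidance genes 15 lay higher in both sets and 19 lower (median -0.03), with 3 higher and 11 lower in the 4-library fit. CDH13, an atypical cadherin gene, measured 22.6 and 28.8 RPKM against 6.99 and 10.4 (1.47 ± 0.28). EPHA5 and EFNA5, an Eph receptor and an ephrin gene, had -1.10 ± 0.23 and -1.13 ± 0.26, and NCAM1, which neurons express strongly, -0.71 ± 0.19.

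With both sets combined, markers of other cell types had medians nearer to 0 than the neuron and glia lists. Within the sets the order differed for glia, whose medians of -0.36 and -0.30 lay nearer to 0 than those of cartilage (0.42 and 0.35). In the first set the red blood cell (-0.43), mesenchyme (0.45) and melanocyte (-0.56) lists also lay farther from 0 than glia. The cartilage and red blood cell medians still lay farther from 0 than the Wnt median of 0.27. Counts below are to be read against all genes, of which 39.9% lay higher and 30.6% lower in both sets. Globin and other red blood cell genes were lower in both sets in 7 of 10 (median -0.31), and their summed level was 1597 and 1244 RPKM in the distal and 2244 and 1476 in the middle libraries. Reads of near-identical globin copies cannot be separated here. Cartilage genes were higher in both sets in 8 of 10 (median 0.39), with COL9A1 at 0.75 ± 0.19 and COL2A1, at 542 to 941 RPKM, at 0.39 ± 0.21. Of 17 mesenchyme genes 9 lay higher in both sets and 4 lower, with PRRX1 at 0.94 ± 0.26, and the list median was 0.45 in the first set and 0.03 in the second. Endothelial, leukocyte and muscle lists had medians of -0.19, -0.10 and 0.00. PTPRC, which marks all leukocytes, measured 0.0439 to 0.363 RPKM and the muscle regulator gene MYOG was listed at 0 in 3 of the 4 libraries. Cell cycle genes had a median of -0.05, with 5 of 26 higher and 11 lower in both sets and CCND2 at 0.66 ± 0.19. In the handling stress list 8 of 12 lay lower in both sets and 2 higher (median -0.12), led by JUN (-0.68 ± 0.22). The lower neuron, glia and red blood cell genes and the higher cartilage genes differ between the same libraries as the signalling genes above, and their part in those results was not tested.

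**Figure D4:**
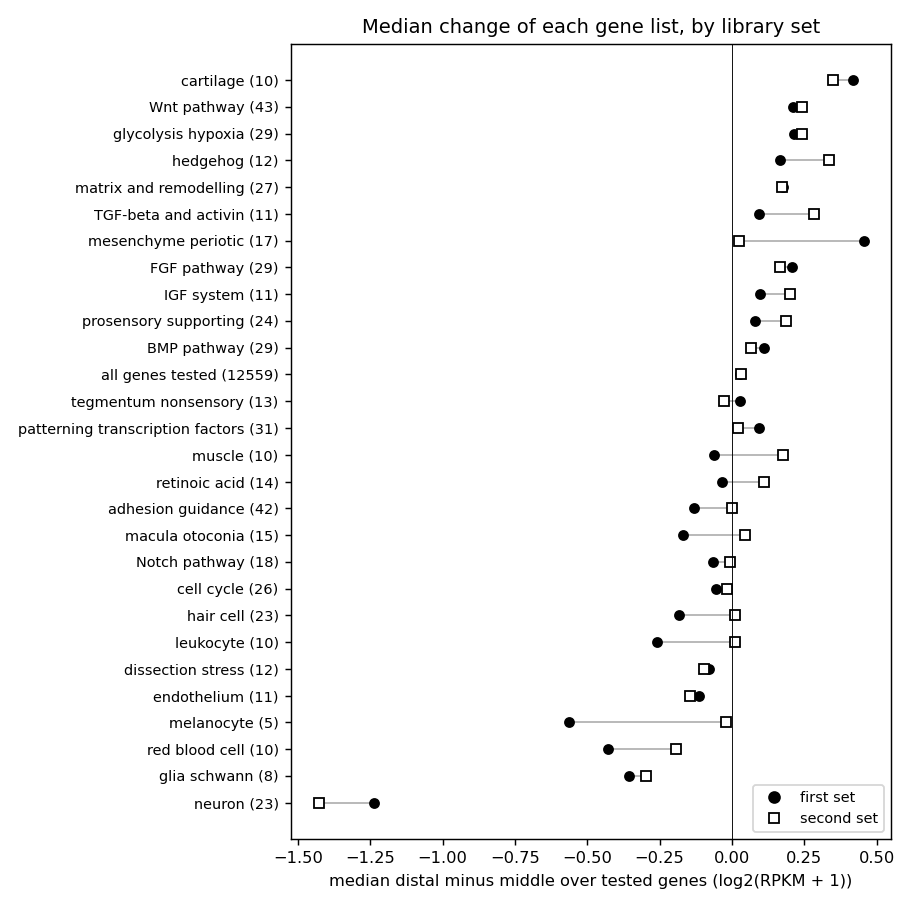
Median distal minus middle change of each gene list on the log2(RPKM + 1) scale, with the number of tested genes in brackets, filled circles for the first set and open squares for the second. Neuron genes lie at -1.24 and -1.43, the other lists lie nearer to 0, and all genes tested have 0.03 in both sets.

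Proximal levels set beside these values separated the distal genes into different profiles along the duct. The middle libraries are shared by both steps, so the values are given side by side. OTOP1 measured 35.9 and 50.03 RPKM in the proximal libraries, near its distal level, and FGF8 7.52 and 5.33. ATOH1 measured 44.7 and 18.5 RPKM there and HMX3 29.0 and 27.7, so that these 4 genes were low in the middle piece and high at both ends. FGF20 also measured 13.7 and 10.1 RPKM in the proximal libraries, as in the distal ones. Proximal values of GFI1 (3.14 and 3.90), LHX3 (5.42 and 5.09) and PAX2 (37.2 and 61.3) lay above the distal ones in each set. CYP26C1, by contrast, measured 2.81 and 2.67 RPKM in the proximal libraries, RGR 3.31 and 1.32, and LDHA 47.0 and 31.0, below the middle level of the same set. For WNT4 the proximal values were 16.6 and 13.3 RPKM and the middle values 13.4 and 10.8. PKP2 measured 4.56 and 7.77 RPKM in the proximal against 5.36 and 6.72 in the middle libraries. STC2 measured 8.97 and 9.17 against 6.02 and 9.93. Proximal against middle values were 280 and 249 against 195 and 279 for GAP43. They were 34.3 and 35.0 against 32.4 and 35.9 for EYA2, and 43.8 and 36.7 against 37.8 and 46.7 for STMN4. For PKP2, STC2, GAP43, EYA2 and STMN4 the sets disagreed in the sign of this step. A contrast of the 2 steps, distal minus middle against middle minus proximal, asked whether they differed. OTOP1 had the smallest adjusted p in limma with the block, 0.126 for a difference in log2 steps of 6.601 ± 0.47, and 0 of 12559 genes (0%) passed, with 424 (3.38%) at an unadjusted p under 0.05. The 6-library model called 66 genes (0.526%) between the distal and proximal pieces and 0 between middle and proximal.

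**Figure D5:**
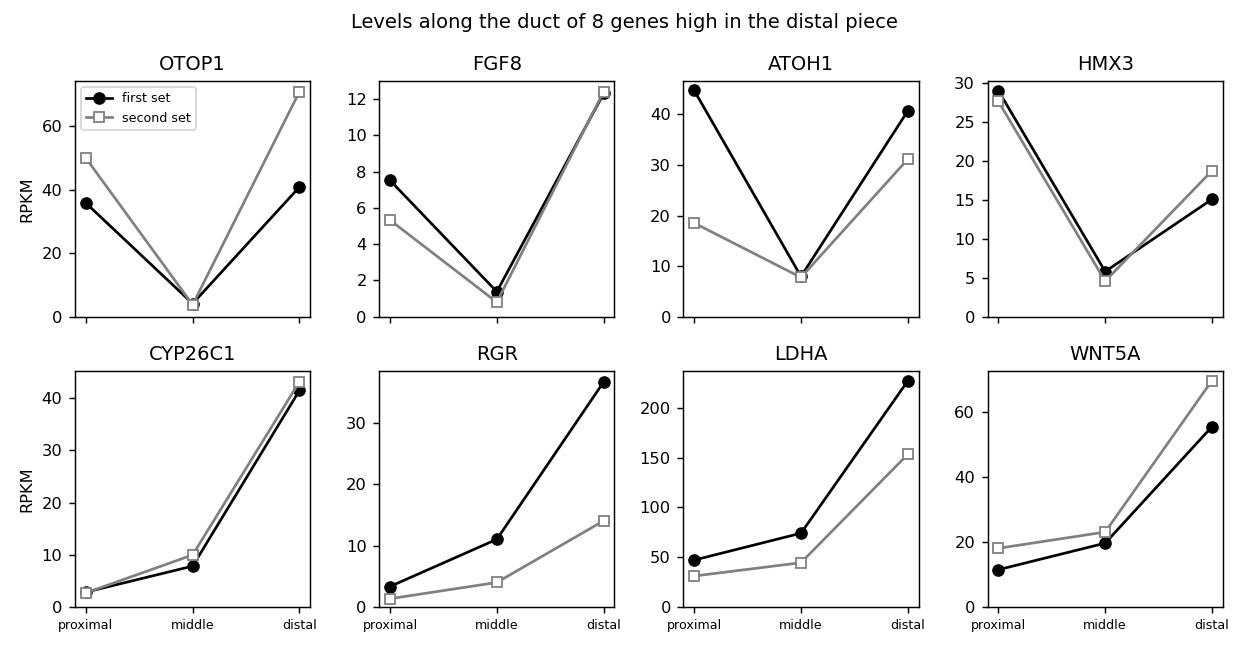
RPKM of 8 genes in the proximal, middle and distal libraries, with filled circles for the first set and open squares for the second. OTOP1, FGF8, ATOH1 and HMX3 (upper row) are lowest in the middle piece, and CYP26C1, RGR, LDHA and WNT5A (lower row) increase toward the distal piece in both sets. The 8 genes were chosen after their values were seen.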

How the data were processed

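RNA was sequenced from pooled pieces of 3 regions of the cochlear duct at embryonic day 6.5, with 2 libraries per region. Per the labels' protocols, mRNA was selected with oligo-dT, and either of 2 Illumina kits was used, without a statement of which library had which. The authors deposited RPKM values per gene. The tools TopHat 1.4.0 and Partek 6.6 are named, per the submitters' processing notes. Build, gene models and strand use: not given in the sources used here. Overlapping genes are therefore not told apart, and no positions are printed. Some values lie far below the worth of 1 read, so whole reads were not recovered and no count model was used. The entry with the number of alignments was kept out of sums and tests. The table names 17684 genes, 12032 of them with a symbol, and 11113 of these symbols occur in the RefSeq table of GRCg7b.

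Values were transformed to log2(RPKM + 1). Genes with 1 RPKM in at least 2 of 6 libraries were tested in limma 3.58.1 (R 4.3.3). The model held region and, as a block, set, over all 6 libraries (2 residual degrees of freedom). Moderation used a variance trend, tests were two-sided, and p-values were adjusted by Benjamini-Hochberg over all genes tested. The block comes from the column names. Second minus first set differences had correlations across genes of 0.885 for middle with distal, 0.655 for distal with proximal and 0.659 for middle with proximal.

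Genes were named by a rule. Per direction, 14 symbols past the threshold were to be taken by size of change. As 0 passed, places went to the smallest p among genes at least 2-fold changed in both sets in the same direction. From each of 27 gene lists, up to 4 members with the smallest p and the same sign in both sets were named. Other list members, and the 8 profiles, were chosen after their values were seen. The members and lists were chosen with earlier results of these data known. Of 702 listed genes, 570 are in the table and 490 were tested. No test was run on a list as a whole.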

Additional observations from a re-analysis of the deposited data

How the results depend on the processing

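The count of 0 genes in the 6-library blocked model stayed at 0 with pseudocount 0.1, without a filter, with a filter of 5 RPKM, with quantile normalization, without a variance trend and with no replicate block (210 genes at an unadjusted p under 0.05, smallest adjusted p 0.828), and the count for the step difference stayed at 0 without the block and without a filter. With the replicate block and 4 libraries only it was 1217 (485 higher, 732 lower), with 147 list members called. All 28 genes named by direction were called, but they were chosen for a 2-fold change in both sets of these same libraries. The fit called 53 of the 53 genes at least 2-fold higher in both sets and 154 of the 155 lower, so these calls add no support. With 1 library left out, the lone library of its region being assumed to vary like the rest, the count ranged from 16 to 1231 (10 to 484 higher, 6 to 747 lower), with 5 to 28 named genes and 6 to 149 list members. Leaving out distal libraries gave 16 (first set) and 81 (second set), middle libraries 31 and 38, and proximal libraries 1231 and 1134. With pseudocount 0.1, genes at least 2-fold changed in both sets numbered 112 higher and 299 lower, a scale on which low genes change more. Of 1496 values of the 117 genes named by rule, 5 reversed. Without the first-set distal library C1QA, CTSS and PMEL had 0.0115, 0.264 and 0.149, and without the second-set middle library CTSS and MYC had 0.255 and 0.04115. With 1 library left out the values ranged from -0.784 to 0.0115 for C1QA, -0.279 to 0.264 for CTSS, -0.735 to 0.149 for PMEL and -0.423 to 0.04115 for MYC. None of the 28 genes named by direction reversed in the settings run. They were chosen for a 2-fold change of the same sign in both sets, so this adds no support for them. Settings that alter only the block, the filter, the variance trend or the proximal libraries cannot move the distal minus middle estimate, so many of the 1496 values could not reverse. The cause of the reversals and of the changes in the counts was not tested. In the shallowest library, the first-set distal one, 1 read per kilobase was worth 0.108 RPKM.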

Other observations

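Several genes outside the lists had a distal excess of at least 2-fold in both sets, and they are named here after their values were seen. ELF5, an epithelial ETS factor gene, measured 71.3 and 51.8 RPKM in the distal and 30.7 and 21.2 in the middle libraries (first set, then second set), a log2 change of 1.22. APOA1, the main apolipoprotein of high-density lipoprotein, measured 147 and 71.6 RPKM against 67.5 and 33.1. The integrin gene ITGB6, which encodes an epithelial receptor subunit, measured 41.5 and 60.4 against 16.9 and 23.0. SST, which encodes the peptide somatostatin, measured 12.6 and 6.93 RPKM against 0.373 and 1.24, opposite in direction to most neuronal genes. CYTL1, a small secreted protein gene, measured 35.6 and 12.5 against 5.96 and 3.12, and HS3ST1, which encodes a heparan sulfate sulfotransferase, 16.3 and 16.0 against 3.10 and 3.50. Very abundant epithelial genes also differed by less than 2-fold, among them AGR3, with 454 and 381 RPKM against 230.3 and 198, and EPCAM, with 396 and 226 against 247 and 155.

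Genes outside the lists that were at least 2-fold lower included peptide genes. TAC1, which encodes substance P, measured 21.2 and 8.28 RPKM in the distal and 49.9 and 43.3 in the middle libraries, and VIP 3.68 and 1.68 against 11.8 and 6.81. SLC17A6, the gene of a vesicular glutamate transporter, measured 1.30 and 2.35 against 3.95 and 8.11. PTN, the growth factor gene of pleiotrophin, measured 41.3 and 73.6 against 157 and 219.7, and PHGDH, the first enzyme of serine synthesis, 31.2 and 22.8 against 91.5 and 78.0. Each of these genes lay lower in both distal libraries than in either middle library, as did 134 of the 155 genes at least 2-fold lower in both sets. They were picked from such genes, so this adds no support.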
